A study of Mus musculus with 14 samples.

Results

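The livers described here came from diet-induced obese (DIO) mice that had no surgery. They were the 5 columns of the deposited read count table named DIO 1 to DIO 5, out of 14 livers in the series, and all 25212 genes of the table were used. The study asked how bile diversion compares with gastric bypass in obesity, and sequenced liver RNA with 1 library per mouse at week 8 after surgery. The other livers were from 4 mice with GB-IL, in which the gallbladder was joined to the ileum and the common bile duct was tied off, and from 5 mice with RYGB, a Roux-en-Y gastric bypass. All of the mice were male C57BL/6 animals. They were put on a high-fat diet at 6 weeks of age, ate it for 12 weeks before they were allocated to a group, and stayed on it afterwards. The DIO mice serve in the study as the controls of both operations, so their genes set the level and the animal-to-animal variation against which surgery was read.

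The total count of a DIO liver lay between 18440676 and 21473005, and 21821 genes had at least 1 count in at least 1 of the 5 livers. The label of liver held: all 10 hepatocyte markers passed a mean of 1 count per 1000000 counts of the library (CPM), and in DIO 1 to DIO 5 they summed to 137224, 131678, 130215, 148846 and 136331 CPM. Alb was the most abundant of them. Kits for library preparation are named in the labels without saying which liver received which, and the methods of the study describe a different preparation that includes amplification of RNA, so a difference in preparation between livers cannot be told apart from a difference between mice. The reads carry no molecular identifiers, so every statement on counting noise below covers counting error only.

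DIO 2 stood apart from the other unoperated livers, and the medians of lists and the results that rest on it are given with and without it. Over the 7523 genes that averaged 10 CPM or more, the median distance of a gene from the middle of the 5 livers was 0.24 on the log2 scale in DIO 2, against 0.13 in DIO 1, 0.15 in DIO 3, 0.11 in DIO 4 and 0.05 in DIO 5. The rank correlation across these genes, which are not independent replicates, was lowest between DIO 2 and DIO 3, at 0.897, and highest between DIO 4 and DIO 5, at 0.981. The distance moved with exon length, the length of all exons of a gene joined. Genes were put in 4 classes of equal size by the length of their exons. In the shortest class, with 57 to 2820 bases, the median log2 deviation of DIO 2 was -0.33, and in the longest class, with 6989 to 123179 bases, it was 0.15. DIO 3 leaned the other way, with 0.11 in the shortest and -0.14 in the longest class. Histone genes, whose transcripts mostly lack a poly(A) tail, summed to 185, 124, 190, 138 and 210 CPM in DIO 1 to DIO 5. The part of exon length or of library preparation in the results below was not tested.

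The hepatocyte is a secretory cell: it makes most of the proteins of blood plasma and the apolipoproteins that carry fat and cholesterol between organs. It also burns and builds fatty acids, makes glucose, converts ammonia to urea, and breaks down drugs and steroids with cytochrome P450 enzymes. Many of these genes follow signals that change within a day or between males and females, such as feeding, the circadian clock, glucocorticoids and the pulses of growth hormone.

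A small number of genes held most of the mRNA of the unoperated obese liver. Plasma proteins, apolipoproteins and the genes of the mitochondrial genome filled the top of the list, and Alb, the gene of serum albumin, led in all 5 livers. To compare genes, counts were divided by the length of all exons of the gene joined and scaled to the same total in each liver (TPM, which add up to 1000000 per liver), and a share of TPM is called a share of the mRNA here. In DIO 1 to DIO 5, 38, 38, 45, 42 and 40 genes held 50% of the mRNA (40.6 ± 2.97, SD, n = 5). The 10 most abundant genes of each liver held 30.6%, 31.3%, 30.3%, 28.9% and 29.1% (30.0% ± 1.02). The 100 most abundant held 61.4% ± 0.722 and the 1000 most abundant 84.9% ± 0.443. Reaching 90% took 1821 ± 113 genes, while 11895 ± 295 genes were at 1 TPM or more. The number for 50% rests on the length: it was 141 genes with shares of the counts themselves and 73.4 with the mean transcript length of each gene.

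Alb (ENSMUSG00000029368, chr5:90460897-90476602 of the GRCm38 build, plus strand) took 9.52%, 9.36%, 8.56%, 9.65% and 8.76% of the mRNA in DIO 1 to DIO 5. Its share differed little between the livers, with a mean of 91717 ± 4824 TPM. Apoa2, a main protein of high-density lipoprotein, came next with 37469, 25584, 46316, 32695 and 31322 TPM. DIO 3 was highest and DIO 2 lowest for this short transcript, which took 3.47% of the mRNA and 0.852% of the counts. Apoe, the apolipoprotein by which remnant particles are taken up, had 16899, 13969, 25095, 19916 and 18011 TPM. DIO 3 and DIO 2 were again the ends of the range. Apoa1, the defining protein of high-density lipoprotein, had 13890, 10042, 12989, 22868 and 14025 TPM, and here DIO 4 was the highest. Apoc1, another small apolipoprotein, had a mean of 11474 ± 2229 TPM.

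Fabp1, the fatty acid-binding protein of liver cytosol, had 19028, 14131, 17636, 15812 and 13197 TPM in DIO 1 to DIO 5. Ttr, the transthyretin that carries thyroid hormone and retinol-binding protein, had a mean of 14106 ± 1738 TPM, and Gc, the vitamin D-binding protein, one of 8360 ± 840 TPM. Mup3, a major urinary protein that binds pheromones, had 14958, 12900, 9562, 16269 and 15423 TPM, lowest in DIO 3. Cyp2e1, a cytochrome P450 of the cells around the central vein, had a mean of 8427 ± 1365 TPM. The remaining gene of the 20 outside the mitochondrial genome was Gm23935, at 8947 ± 2003 TPM. It is annotated as a microRNA of 57 bases, and division by so short a length makes its level uncertain.

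The mitochondrial genome supplied 9 of the 20 most abundant genes. Its protein-coding genes together took 17.1%, 22.1%, 14.3%, 13.2% and 18.03% of the mRNA in DIO 1 to DIO 5 (16.9% ± 3.49). DIO 2 was the highest liver and DIO 4 the lowest, and 8 of the 12 genes kept were highest in DIO 2, against 26.7% of all genes. The level of mt-Co3, a subunit of cytochrome c oxidase, was 30800, 27777, 28318, 23807 and 28034 TPM. For mt-Co1, the catalytic subunit of the same enzyme, the values were 24078, 35914, 23677, 21340 and 28503 TPM. DIO 2 led here but not for mt-Co3, so these transcripts of a single genome did not keep a fixed ratio. The means of mt-Atp6 and mt-Co2 were 25113 ± 5117 and 24606 ± 3012 TPM. Those of mt-Cytb, mt-Nd2, mt-Nd4 and mt-Nd1 lay between 8361 ± 2155 and 14095 ± 3744 TPM. The level of mt-Atp8, which overlaps mt-Atp6 and is therefore uncertain, was 9685, 20122, 6776, 6265 and 11492 TPM. As a share of the counts, which does not divide by length, the mitochondrial genes took 7.06%.

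**Figure D1:**
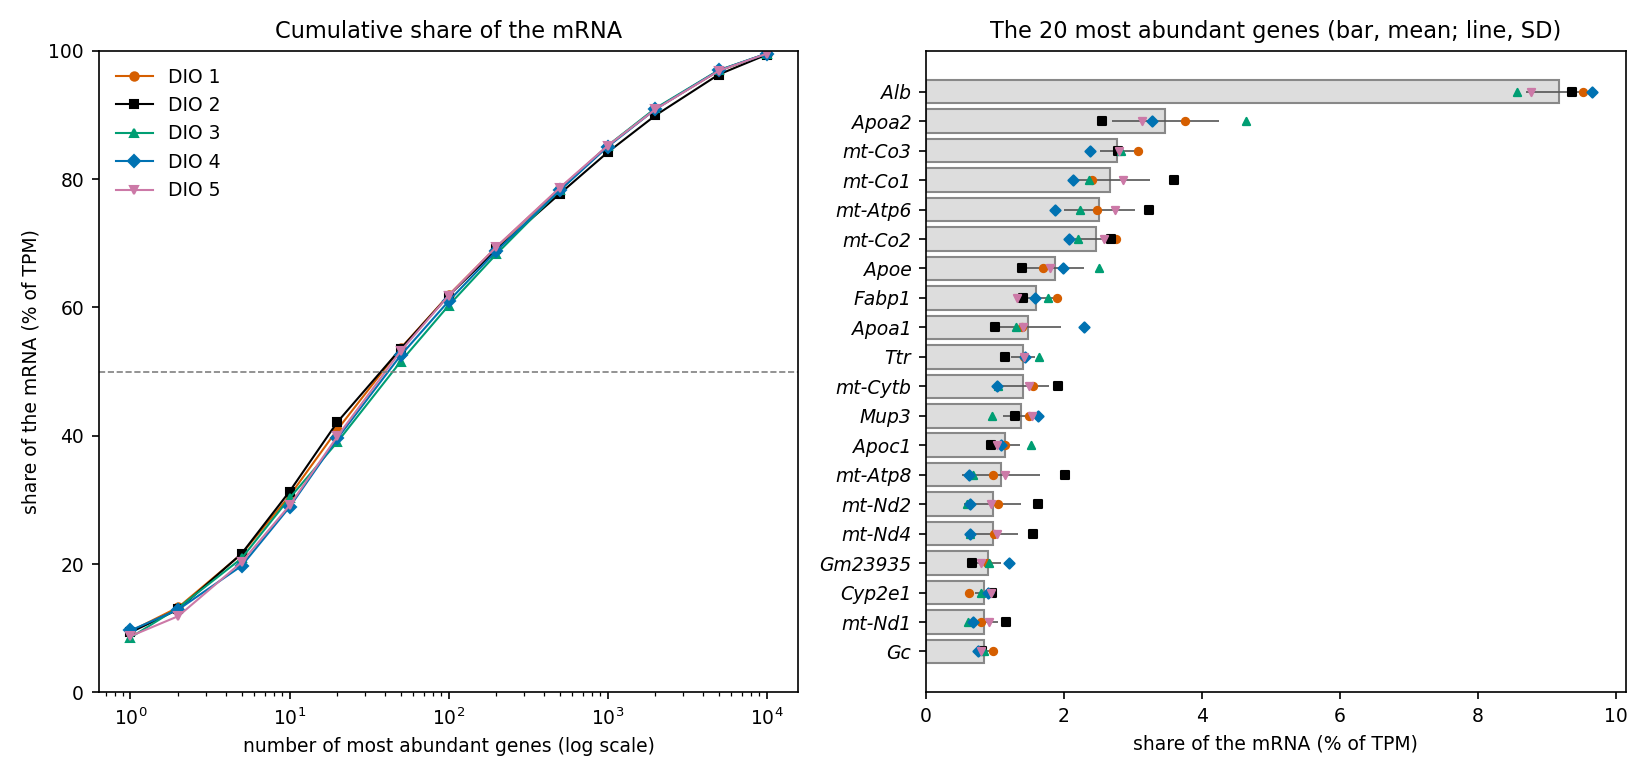
The left panel plots the share of the mRNA (% of TPM) against the number of most abundant genes (log scale) for each of the 5 unoperated livers, and the dashed line marks 50%, which is reached at 38 to 45 genes. The right panel gives the share of the mRNA of the 20 most abundant genes as a mean (bar) with its SD (line) and the value of each liver (points), and Alb stands far above the others in every liver.

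Among the 100 genes with the highest mean TPM, 29 were secreted plasma proteins, which took 20.2% of the mRNA. Another 12 were mitochondrially encoded genes with 16.9%, and 6 were apolipoproteins with 8.51%. Enzymes of the urea cycle and of amino acid breakdown gave 7 genes and 1.42%, and 28 genes with 6.70% were in none of the lists used here. The 49 secreted plasma proteins of the list took 21.7%, 19.9%, 20.4%, 22.7% and 20.8% of the mRNA of DIO 1 to DIO 5. DIO 4 was highest and DIO 2 lowest, and the range was narrow. Protein-coding genes took 95.5% ± 0.499 of the mRNA. The livers shared much of this order: 81 genes were among the 100 most abundant of every DIO liver and 125 were so in at least 1. Of the 100 genes by the DIO mean, 93 were also among the 100 of the RYGB mean and 81 among those of the GB-IL mean.

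The same shares were set beside those of the operated livers with exact two-sided permutation tests, 10 in all. None of the 10 passed the threshold after adjustment, but few livers limit these tests: the smallest exact permutation p is 0.00794 for RYGB and 0.0159 for GB-IL, and a single such p would become 0.0794 or 0.159 after adjustment. In the operated groups 50% of the mRNA was held by 41.3 ± 6.70 genes in GB-IL (n = 4) and by 38.2 ± 2.39 in RYGB (n = 5). The share of secreted plasma proteins was 21.1% ± 1.10 in DIO and 23.7% ± 2.66 in RYGB, where 3 of 5 livers were above every DIO liver (exact permutation p = 0.0317, adjusted p = 0.317). The difference of 2.56 points rests partly on RYGB 5, since it was 1.39 without that liver. In GB-IL the share of secreted plasma proteins was 24.7% ± 4.38, with 3 of 4 livers above and 1 below every DIO liver (exact permutation p = 0.143, adjusted p = 0.603). Its difference of 3.64 points was 5.62 without GB-IL 4. The mitochondrial share was 18.8% ± 1.70 in RYGB and 13.7% ± 6.35 in GB-IL (exact permutation, adjusted p = 0.603 and 0.635). The difference of RYGB in it, 1.90 points, was 0.966 without DIO 4 and 3.19 without DIO 2, and that of GB-IL, -3.18 points, was -1.41 without GB-IL 3 and -5.99 without GB-IL 4.

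Unoperated mice on the same diet differed from each other at most genes by more than counting error. Wide differences were seen in red cell genes and in B and plasma cell genes, both mostly highest in DIO 2, in major urinary proteins and male-biased genes, mostly highest in DIO 4, and in female-biased genes, most often highest in DIO 3. Genes of cholesterol synthesis differed through DIO 1, where nearly all were highest. The steadiest genes included Plg, the plasminogen gene, among the abundant ones and Osgepl1 and Pan3 among those of middle level. Variation was measured on CPM scaled between the 5 livers as the coefficient of variation (CV, the SD as a percentage of the mean). It was computed for the 12347 genes that averaged 1 CPM or more. The median CV was 18.9%, where counting error alone gave a median of 5.80%, and the median ratio of the highest to the lowest liver was 1.60. A chi-square test of each gene's counts against counting error called 10247 genes, 83.0% of those tested, at a false discovery rate of 0.05. Without DIO 2 the median CV was 15.6%, and 8812 of 12267 genes, 71.8%, were called.

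Variation depended on the level of expression, mostly at its low end. The 4824 genes of 1 to 10 CPM had a median CV of 23.1%, where counting error alone gave a median of 11.5%. As a share of their variance, counting error had a median of 26.9%, and 65.5% of these genes were called. The 6248 genes of 10 to 100 CPM had a median CV of 16.6%, the 1145 genes of 100 to 1000 CPM one of 17.0%, and the 130 genes of 1000 CPM and over one of 17.96%. In that last level all 130 genes were called, with a median CV from counting of 0.501%. Among all genes kept, 570 had a CV over 50% and 1551 had one under 10%. To compare genes at a given level, each CV was divided by the median CV of the genes nearest in mean CPM, and the log2 of this ratio is called the relative spread. A relative spread of 1 is a CV 2 times that usual at the level, and 0 is the usual CV. The highest 10% of genes began at 0.92 and the lowest 10% ended at -0.98. An SD from 5 livers is imprecise, since its 95% interval runs from 0.599 to 2.87 times the value, so the order among neighbouring genes is loose.

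**Figure D2:**
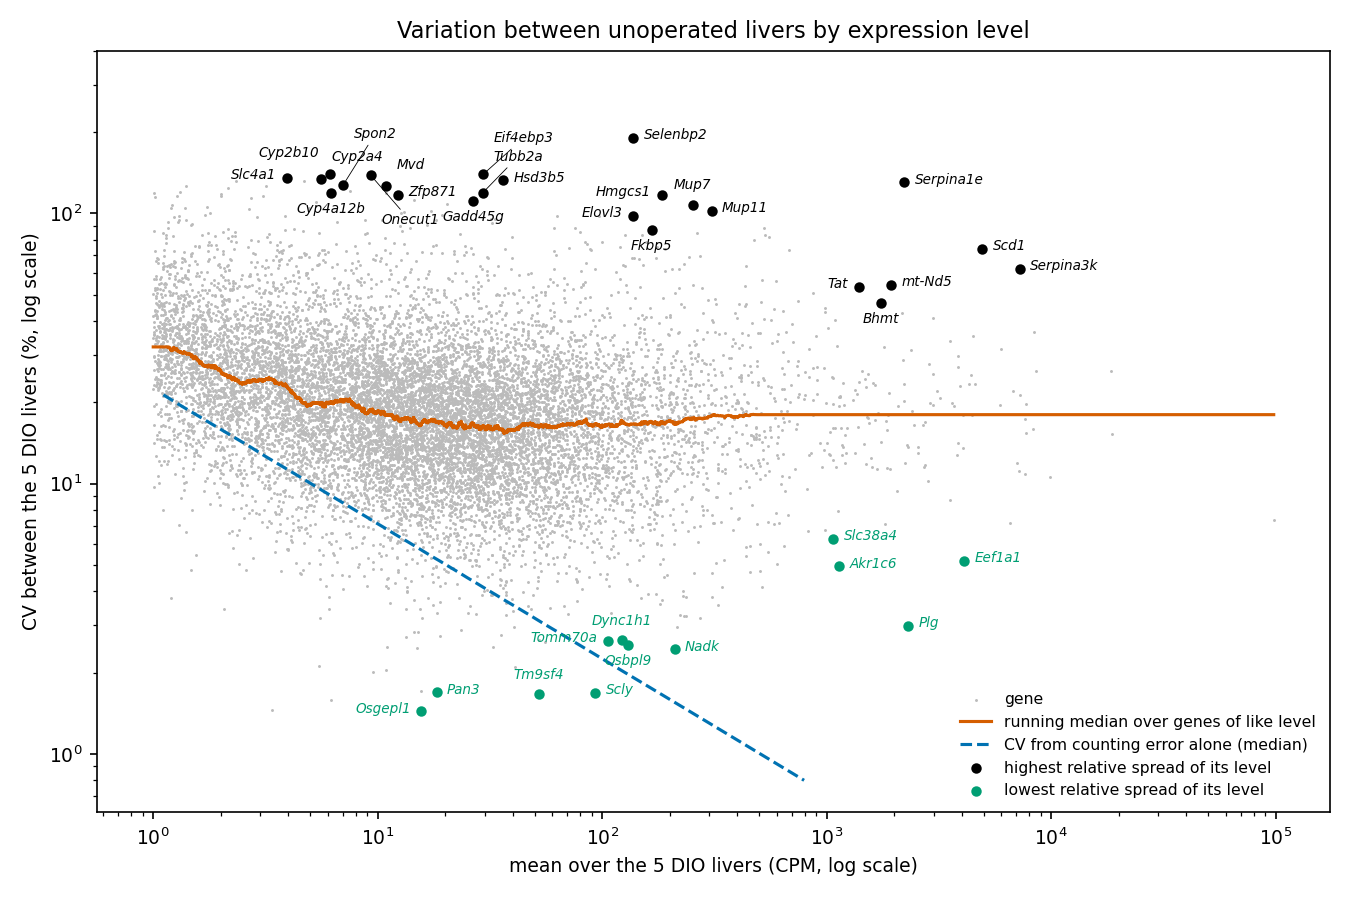
Each grey point is a gene, with its mean over the 5 unoperated livers (CPM, log scale) and its CV between them (%, log scale), the solid line is the running median over genes of like level and the dashed line the CV from counting error alone. Black and green points are the named genes with the highest and lowest relative spread of their level, and Selenbp2 is the highest of all at a CV of 191%.

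Selenbp2, a selenium-binding protein that is higher in male than in female mouse liver, had the highest relative spread of any gene kept. Its level (ENSMUSG00000068877, chr3:94693556-94704413, plus strand) was 8.89, 11.5, 5.86, 604 and 56.5 CPM in DIO 1 to DIO 5. DIO 4 stood far above the other 4 livers, and the ratio of highest to lowest was 103. The CV of 191% compares with 16.6% usual at its level, a relative spread of 3.52, or 2.77 without DIO 4. Hsd3b5, a steroid dehydrogenase of male liver, had 2.90, 24.2, 0.701, 118 and 35.2 CPM. It was likewise highest in DIO 4 and lowest in DIO 3, with a relative spread of 3.08. Cyp4a12b, a male-biased fatty acid hydroxylase, had 1.86, 1.52, 0.601, 17.8 and 9.10 CPM, again with DIO 4 at the top and DIO 3 at the bottom.

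These genes belong to a list of 15 male-biased liver genes, of which 14 were kept, 14 were called and 14 had a CV above that usual at their level. Of all genes kept, 83.0% were called and 49.97% were above the usual CV, and the counts below are to be read beside these shares. The median relative spread of the list was 1.57, or 1.89 without DIO 2 and 1.27 without DIO 4. Of the 14, 11 were highest in DIO 4, where 19.3% of all genes were highest. The list took 0.832%, 0.713%, 0.555%, 1.45% and 1.18% of the mRNA. Mup20, the most abundant of the list and the urinary pheromone of male mice, had 2724, 1914, 1795, 4559 and 3948 CPM. DIO 4 and DIO 5 were above the other 3 livers. The 16 of 21 major urinary protein genes kept had a median relative spread of 1.89, or 2.27 without DIO 2 and 1.29 without DIO 4, and 15 of the 16 were highest in DIO 4 (19.3% of all genes). Together they took 2.58%, 2.27%, 1.68%, 3.63% and 3.04% of the mRNA. Mup7 had 148, 114, 26.3, 719 and 261 CPM, and Mup11 had 166, 146, 69.3, 850 and 307 CPM. The order of the livers was the same for both. The genes of this family are near copies of each other, so the level of a single member is uncertain.

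The list of female-biased liver genes showed the opposite end of the livers. Of its 18 genes 8 were kept, all 8 were above the usual CV and called, and 5 were highest in DIO 3, where 22.4% of all genes were highest. Their median relative spread was 1.86, and 2.36 without DIO 2. Cyp2b9, a cytochrome P450 that is higher in females, had 137, 160, 358, 35.1 and 90.5 CPM. Cyp2a4, a female-biased steroid hydroxylase, had 7.14, 1.67, 18.2, 0.450 and 0.626 CPM. Both were highest in DIO 3 and lowest in DIO 4. The list as a whole took 0.0224%, 0.0289%, 0.0508%, 0.00899% and 0.0173% of the mRNA. Cyp3a16, Cyp3a41a, Cyp3a41b and Sult2a1 had 0 counts in every DIO liver, which allows up to 0.169 CPM (3 counts) in the shallowest library.

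Cholesterol synthesis set DIO 1 apart. Of the 25 genes of cholesterol synthesis and uptake, all were kept and called, 23 were above the usual CV, and 24 were highest in DIO 1, where 18.7% of all genes were highest. Hmgcs1, the cytosolic synthase that feeds the mevalonate pathway, had 565, 137, 92.5, 60.6 and 65.5 CPM. Mvd, a decarboxylase further along that pathway, had 35.5, 5.33, 4.81, 5.73 and 3.23 CPM. DIO 1 was several times above each of the other livers for both genes, and without it their relative spreads of 2.79 and 2.81 fell to 1.35 and 0.28. The list took 0.258%, 0.147%, 0.112%, 0.122% and 0.112% of the mRNA. Its median relative spread was 1.53, and it fell to 0.59 without DIO 1 but was 2.03 without DIO 2.

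Genes of fatty acid and triglyceride synthesis leaned the same way but less uniformly, with 12 of 22 highest in DIO 1 (18.7% of all genes). Their median relative spread was 0.62 (0.89 without DIO 2, 0.36 without DIO 1), 19 of 22 were above the usual CV and all 22 were called. They took 0.817%, 0.540%, 0.593%, 0.398% and 0.366% of the mRNA. Scd1, the desaturase that makes monounsaturated fatty acids, had 10485, 4471, 6286, 1791 and 1658 CPM. DIO 1 was highest and the pair of DIO 4 and DIO 5 lowest, with a relative spread of 2.04. Elovl5, an elongase of long fatty acids, had 1352, 357, 485, 293 and 284 CPM. Elovl3, an elongase in the male-biased list, had 377, 65.8, 51.6, 98.3 and 96.0 CPM. Both stood out in DIO 1 alone, and without it their relative spreads fell from 2.18 to 0.72 and from 2.56 to 0.84.

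The livers of obese mice store fat in droplets, and genes of the droplet varied too. Of 20 such genes 19 were kept, 18 were called, 16 were above the usual CV and 11 were highest in DIO 3 (22.4% of all genes), with a median relative spread of 1.30 and 1.59 without DIO 2. Plin2, the main coat protein of hepatocyte droplets, had 766, 327, 619, 372 and 450 CPM. Cidea, which makes droplets fuse, had 1.45, 0.0476, 6.76, 0.562 and 1.97 CPM, with DIO 3 highest and DIO 2 nearly without a count. The list took 0.121%, 0.0766%, 0.140%, 0.0987% and 0.114% of the mRNA. Fatty acid oxidation and ketogenesis was steadier. Its 25 genes took 2.59%, 2.12%, 2.49%, 2.31% and 2.11% of the mRNA, with a median relative spread of 0.07 (-0.05 without DIO 2, 0.21 without DIO 3) and 13 of 25 above the usual CV. Fgf21, a fasting hormone of the liver, was its most variable gene, with 9.82, 1.71, 2.31, 2.36 and 3.23 CPM, highest in DIO 1, and its relative spread of 1.89 fell to 0.02 without that liver.

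Several of the most variable genes separated DIO 4 and DIO 5 from the other livers. Fkbp5, a co-chaperone of steroid receptors, had 64.4, 66.0, 53.8, 339 and 307 CPM. Gadd45g, a stress-induced regulator of growth arrest, had 9.20, 5.33, 3.66, 70.0 and 45.3 CPM. In both, DIO 4 and DIO 5 were above the other 3 livers with no overlap. Serpina3k, a protease inhibitor of plasma, had 4781, 3900, 3354, 12993 and 11247 CPM, with the same division. Tat, the aminotransferase that breaks down tyrosine, had 1429, 522, 839, 1765 and 2388 CPM, and Bhmt, which methylates homocysteine, had 1286, 609, 1943, 2225 and 2682 CPM. DIO 5 was highest and DIO 2 lowest for both. Eif4ebp3, which restrains the start of translation, had 2.28, 5.00, 3.16, 98.1 and 39.4 CPM, a relative spread of 3.10.

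The list of gluconeogenesis and insulin response had a median relative spread of 0.80 (1.08 without DIO 2), with 14 of 19 above the usual CV and all 19 called. It took 0.632%, 0.521%, 0.612%, 0.812% and 0.893% of the mRNA, highest in DIO 5. Igfbp1, a binding protein that insulin represses, had 107, 11.2, 20.4, 78.9 and 92.6 CPM, so DIO 2 and DIO 3 were low. Fbp1, an enzyme of glucose synthesis, had 1189, 968, 1493, 1182 and 1354 CPM, close to the usual spread. Urea cycle and amino acid breakdown had 28 genes, all called, with a median relative spread of 0.24 (0.42 without DIO 2, 0.03 without DIO 5) and 18 above the usual CV. They took 1.81%, 2.10%, 2.40%, 2.63% and 2.86% of the mRNA, and 12 of the 28 were highest in DIO 5, where 12.8% of all genes were highest. Hpd, which acts in tyrosine breakdown, had 1915, 2074, 3452, 3424 and 3445 CPM, lower in DIO 1 and DIO 2 than in the rest. Sds, which turns serine into pyruvate, had 113, 113, 190, 328 and 357 CPM.

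Clock genes were variable almost without exception. Of 20 genes of the circadian clock and its output 19 were kept, and all 19 were called and above the usual CV, with a median relative spread of 1.13 (1.53 without DIO 2). The list took 0.0299%, 0.0569%, 0.0483%, 0.0472% and 0.0504% of the mRNA, lowest in DIO 1. Arntl, the activator at the core of the clock, had 15.5, 3.33, 1.65, 1.35 and 4.67 CPM. DIO 1 was the highest liver, and the relative spread of 2.47 was 1.22 without it. Tef, a transcription factor driven by the clock, had 76.1, 255, 228, 220 and 209 CPM. Here DIO 1 was the lowest, and the relative spread of 1.05 turned to -0.76 without DIO 1. Neither labels nor methods used here give the hour at which each mouse was killed, and the part of time of day was not tested.

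Immediate early and stress genes had 23 of 29 kept, 22 called and 21 above the usual CV, with a median relative spread of 1.30 (1.56 without DIO 2). They took 0.128%, 0.0869%, 0.183%, 0.147% and 0.224% of the mRNA. Mt2, a metal-binding metallothionein, had 26.5, 36.0, 212, 96.9 and 259 CPM, low in DIO 1 and DIO 2. Other members went the other way, and 11 of the 23 were highest in DIO 1, where 18.7% of all genes were highest. Summed as counts the list had 1989, 1061, 1469, 1445 and 1767 CPM, highest in DIO 1, so its highest liver depends on the scale. Egr3 had 0 counts in all 5 livers. Acute phase genes, which the liver raises in inflammation, took 3.76%, 2.61%, 3.29%, 2.58% and 3.22% of the mRNA. All 27 were called, as were 83.0% of all genes, and 24 were above the usual CV, as were 49.97%. Their median relative spread was 0.72 (0.99 without DIO 2). Saa2, a serum amyloid protein, had 45.6, 15.9, 62.8, 23.2 and 168 CPM, highest in DIO 5. The interferon response list had 32 genes, 31 called and 27 above the usual CV, with a median relative spread of 0.77 (0.90 without DIO 2, 0.44 without DIO 5). It took 0.0716%, 0.0630%, 0.0633%, 0.0478% and 0.0423% of the mRNA, and 25 of the 32 were highest in DIO 1 or DIO 2, where 45.5% of all genes were highest. Cmpk2, a nucleotide kinase induced by interferon, had 9.82, 6.48, 3.01, 2.47 and 1.83 CPM, while Bst2, the most abundant of the list, had 122, 77.7, 128, 108 and 88.3 CPM.

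**Figure D3:**
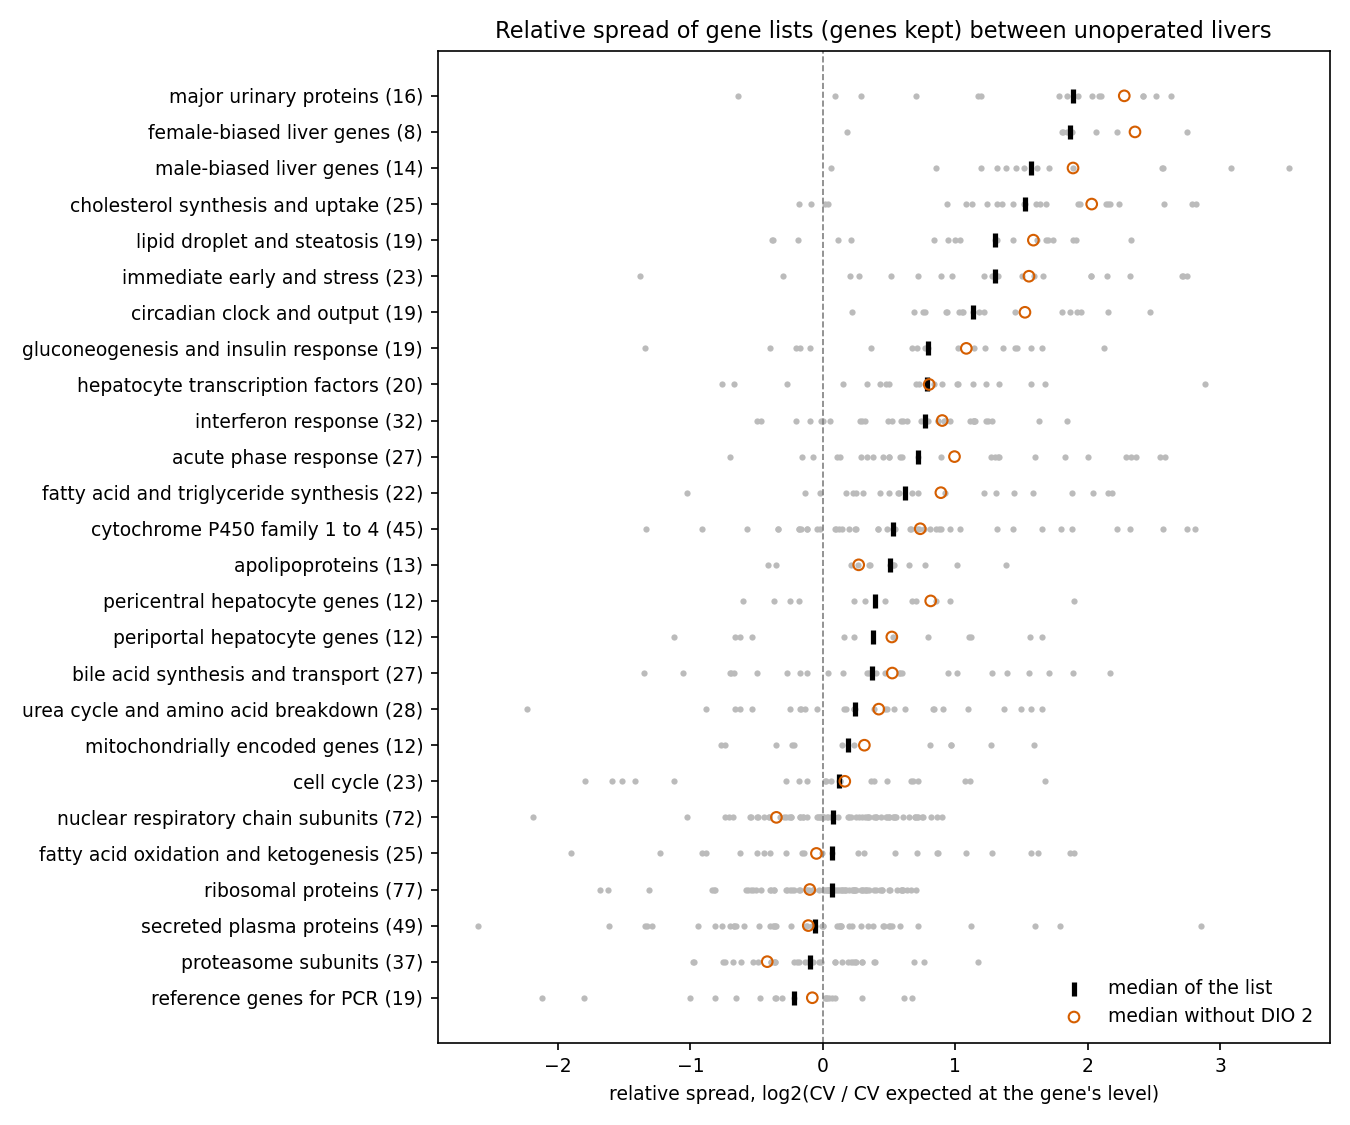
Each row is a gene list with the number of its genes kept, grey points give the relative spread of each gene (log2 of the CV over the CV usual at its level), the black tick is the median of the list and the open circle the median without DIO 2. Major urinary proteins, female-biased, male-biased and cholesterol genes have the highest medians, from 1.53 to 1.89, and the reference genes for PCR the lowest, at -0.22.

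Cytochrome P450 genes of families 1 to 4 took 1.52%, 2.15%, 1.99%, 2.00% and 2.10% of the mRNA, lowest in DIO 1. Of 53 genes 45 were kept, 44 were called and 33 were above the usual CV, with a median relative spread of 0.53 (0.73 without DIO 2, 0.30 without DIO 4). Cyp2b10, which the xenobiotic receptor CAR induces, had 0.879, 0.905, 3.31, 4.38 and 21.2 CPM, far higher in DIO 5, with a relative spread of 2.81, or 1.56 without DIO 5. Bile acid synthesis and transport took 0.778%, 0.804%, 0.704%, 0.785% and 0.779% of the mRNA. Its 27 genes were all called, 18 were above the usual CV, and the median relative spread was 0.37 (0.52 without DIO 2, 0.21 without DIO 4). Scp2, a sterol carrier and the most abundant of them, had 3921, 3119, 3446, 3464 and 3740 CPM, a relative spread of -1.05. Nr0b2, a nuclear receptor that restrains bile acid synthesis, had 48.3, 6.91, 23.4, 13.7 and 17.5 CPM, with DIO 1 highest and DIO 2 lowest. The 13 apolipoproteins took 8.95%, 6.66%, 11.04%, 9.64% and 8.36% of the mRNA, with a median relative spread of 0.50 (0.27 without DIO 2), all called and 11 above the usual CV. Apoa4, an apolipoprotein that rises with fat load, was the most variable, with 463, 162, 670, 305 and 444 CPM.

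Hepatocyte transcription factors had 20 genes, all called and 17 above the usual CV, with a median relative spread of 0.78 (0.80 without DIO 2, 0.52 without DIO 1). They took 0.138%, 0.170%, 0.153%, 0.179% and 0.174% of the mRNA. Hnf4a, which holds the hepatocyte state, had 697, 585, 514, 797 and 838 CPM and a relative spread of 0.15, or -0.21 without DIO 3. Onecut1, a factor of liver and bile duct development, had 5.79, 32.2, 1.75, 4.05 and 2.79 CPM, high in DIO 2 alone, and its relative spread of 2.89 fell to 1.21 without that liver. Genes that mark the cells around the central vein took 1.02%, 1.40%, 1.31%, 1.27% and 1.34% of the mRNA, with 8 of 12 above the usual CV, 11 called and a median relative spread of 0.39 (0.81 without DIO 2, 0.13 without DIO 1). Rhbg, an ammonia transporter of that zone, had 5.95, 3.72, 18.3, 5.62 and 7.03 CPM, highest in DIO 3, with a relative spread of 1.90 that fell to 0.33 without DIO 3. Genes of the zone around the portal vein took 0.597%, 0.643%, 0.624%, 0.822% and 0.841%, with 8 of 12 above the usual CV, all called and a median relative spread of 0.38 (0.52 without DIO 2, 0.24 without DIO 4). Ass1, the urea cycle synthetase and the most abundant of this zone, had 1782, 1741, 2228, 2713 and 2580 CPM.

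Other genes named for high relative spread were single members of steadier lists or in no list. Serpina1e, a form of the protease inhibitor alpha-1-antitrypsin, was the most variable gene of 1000 CPM and over. It had 1112, 638, 183, 7276 and 1900 CPM, a relative spread of 2.86 with DIO 4 far above the rest, and 2.05 without DIO 4. Its close copies among the Serpina1 genes make the level uncertain. The secreted plasma proteins as a list sat at the usual spread, with a median relative spread of -0.06 (-0.11 without DIO 2, -0.12 without DIO 1, 0.08 without DIO 3), 22 of 49 above the usual CV and all 49 called. Tubb2a, a beta-tubulin, had 91.8, 13.3, 17.4, 8.60 and 15.9 CPM, and Spon2, a secreted matrix protein, had 23.0, 2.81, 4.36, 3.15 and 1.83 CPM. Both were high in DIO 1, and without it their relative spreads fell from 2.87 to 0.76 and from 2.67 to 0.57. Zfp871, a zinc finger protein, had 6.15, 37.8, 4.81, 3.65 and 8.91 CPM, high in DIO 2, and its relative spread was 2.74 with that liver and 1.13 without it. The level of mt-Nd5, a subunit of respiratory complex I, was 1249, 3579, 1171, 1266 and 2391 CPM, highest in DIO 2, with a relative spread of 1.60 and of 1.30 without it. The mitochondrially encoded genes as a list had a median relative spread of 0.19 (0.31 without DIO 2, 0.08 without DIO 4, 0.43 without DIO 1). It was 0.54 with the total count as the scale. Of these 12 genes 7 were above the usual CV and all 12 were called.

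The 100 most variable genes of at least 10 CPM did not peak evenly over the mice. DIO 1 was the highest liver for 31 of them, DIO 2 for 22, DIO 3 for 6, DIO 4 for 28 and DIO 5 for 13. Of all 7523 genes of that level, the same livers were highest for 18.5%, 24.7%, 22.3%, 21.6% and 13.0%. The shares of all genes kept were 18.7%, 26.7%, 22.4%, 19.3% and 12.8%. Of the 100 genes, 50 were in at least 1 of the gene lists or cell types, among them 9 cholesterol genes, 8 major urinary proteins, 6 acute phase genes and 6 immediate early and stress genes. Of the 100 least variable genes of that level, 4 were, and of all 7523 genes of that level 8.12% were. The lists were chosen with earlier results of these data known, so these counts are a description. Among the 100 most abundant genes the median relative spread was 0.13, with 59 above the usual CV and all 100 called.

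**Figure D4:**
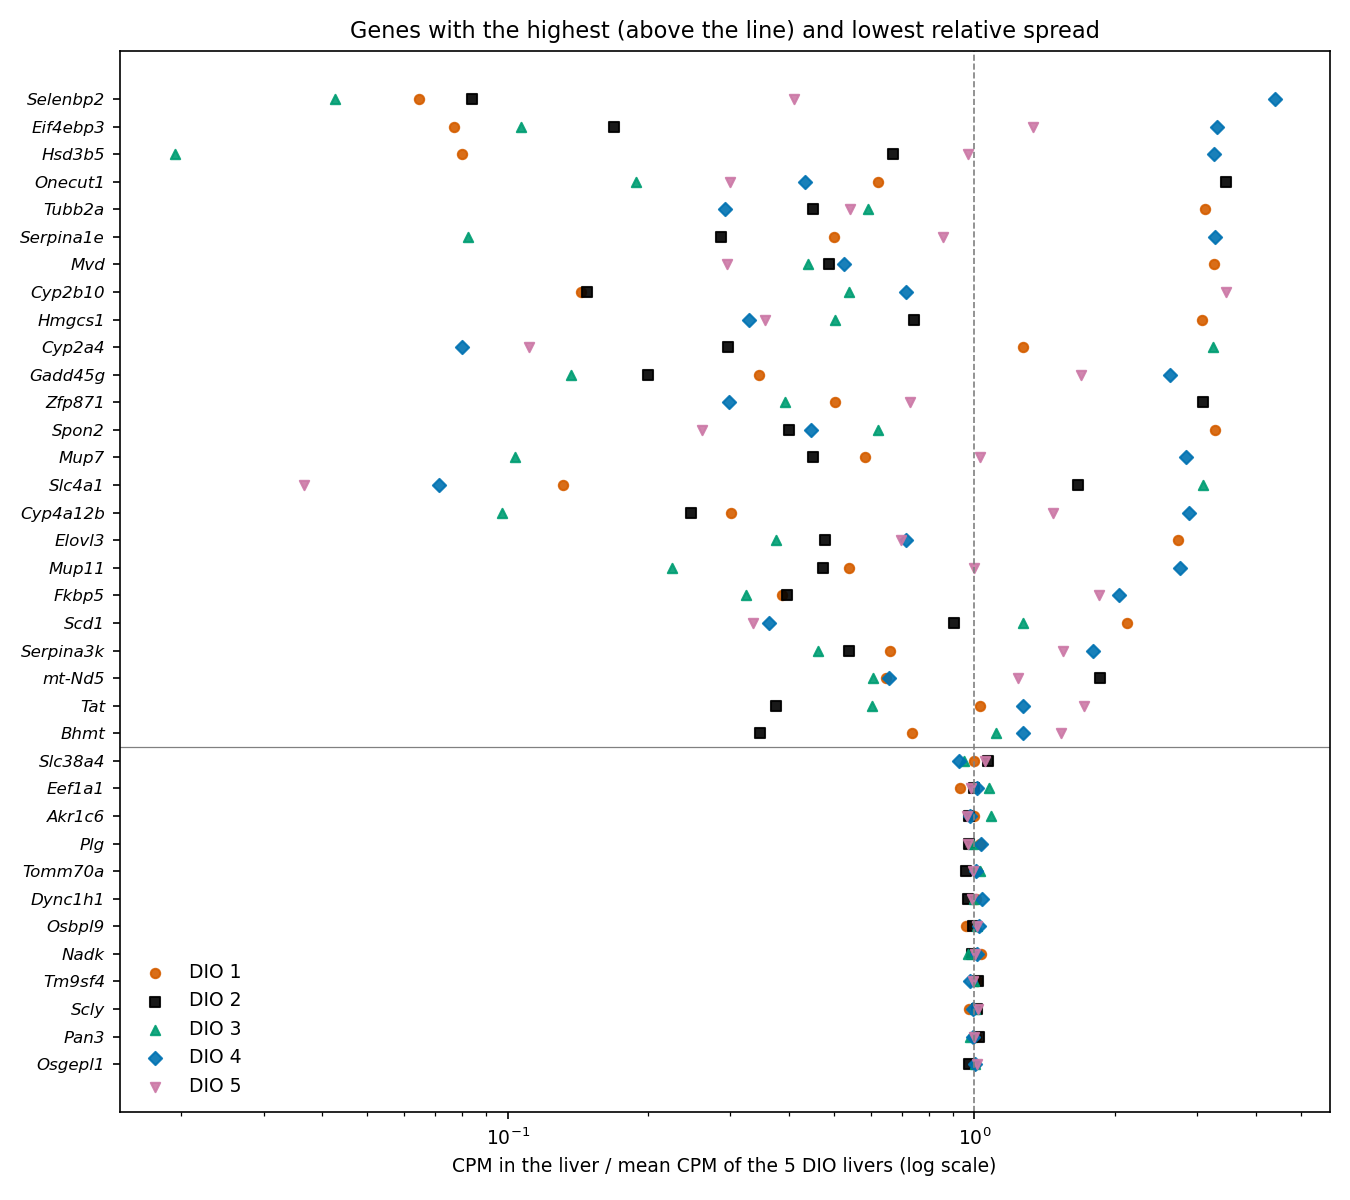
For each named gene of highest (above the line) and lowest (below the line) relative spread, the horizontal axis gives the CPM of each liver divided by the mean of the 5 unoperated livers, on a log scale, with 1 symbol per liver. Points of the upper genes lie far apart, most often with DIO 4 or DIO 1 at the right, and those of the lower genes lie together near 1.

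Markers of other cells were used to see which livers held more of their RNA. In RNA of whole tissue, fewer cells of a type and less RNA per cell cannot be told apart. Red cell genes varied most: all 7 erythroid markers in the table were kept, called and above the usual CV, with a median relative spread of 2.18 (2.71 without DIO 2), and 6 of 7 were highest in DIO 2 (26.7% of all genes). They summed to 1224, 2440, 1270, 346 and 247 CPM in DIO 1 to DIO 5, and the beta-globin gene Hbb-bs was the most abundant. Slc4a1, the anion exchanger of the red cell membrane, had 0.517, 6.57, 12.2, 0.281 and 0.144 CPM and was high in DIO 3 and DIO 2. The liver that stands apart, DIO 2, was thus also the one richest in red cell RNA, and the part of these cells in its results was not tested. B and plasma cell markers, 6 of 8 kept, all 6 called and above the usual CV, summed to 23.4, 84.6, 54.4, 24.1 and 10.8 CPM with Igkc as the most abundant gene, and their median relative spread was 1.67 (1.82 without DIO 2). DIO 2 and DIO 3 were again the highest.

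The resident cells of the liver were present in every animal. Kupffer cell and macrophage markers, 12 of 12 kept and called and 11 above the usual CV, summed to 641, 863, 969, 620 and 546 CPM, with Cd5l most abundant and a median relative spread of 0.85 (1.02 without DIO 2, 0.31 without DIO 3). Of these 12, 7 were highest in DIO 3 and 5 in DIO 2, where 49.1% of all genes were highest. Stellate cell markers, 12 of 12 kept, summed to 385, 315, 269, 276 and 251 with Dcn most abundant, 8 above the usual CV, 11 called and a median of 0.39 (0.48 without DIO 2). Sinusoidal endothelium markers, 11 of 11 kept and called, summed to 420, 378, 311, 428 and 423 with Clec4g most abundant, 8 above the usual CV and a median of 0.30, which was 0.74 without DIO 2 and turned to -0.28 without DIO 3. Cholangiocyte markers, 4 of 9 kept and called, summed to 77.3, 48.7, 58.3, 52.9 and 56.2 with Spp1 most abundant, 3 above the usual CV and a median of 0.58, which was 0.51 without DIO 2 and turned to -0.13 without DIO 1. The part of these cells in the spread of the gene lists was not tested. The hepatocyte markers had a median of 0.15 (0.09 without DIO 2, 0.29 without DIO 1), with 6 of 10 above the usual CV and all 10 called.

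Most markers of cells from elsewhere had too few counts to be kept. T and NK cell markers, 3 of 12 kept and 1 called, summed to 9.90, 10.6, 6.73, 6.94 and 6.89 CPM in DIO 1 to DIO 5, with Ccl5 most abundant. Neutrophil markers, 1 of 10 kept and called, summed to 5.75, 4.84, 2.67, 3.09 and 3.17 with S100a9 most abundant, and Ly6g had 0 counts in all 5 livers. Adipocyte markers, 1 of 6 kept and called, summed to 3.33, 0.521, 7.27, 1.46 and 1.26 with Cfd most abundant. Exocrine pancreas markers, 1 of 15 kept and called, summed to 17.3, 22.2, 14.6, 37.5 and 27.2 with Cela1 most abundant and Amy2b at 0. Markers of gallbladder and gut epithelium, 2 of 10 kept and called, summed to more, at 183, 88.6, 222, 139 and 138. Fabp2 and Lgals4 were the 2 kept, with Fabp2 most abundant and Muc5b at 0. Fabp2 alone took a mean of 0.0282% of the mRNA where all 10 took 0.0313%, so this sum rests mostly on 1 gene. Whether its RNA came from such epithelium was not tested. Mesothelium markers, 3 of 6 kept and called, summed to 3.74, 12.3, 2.72, 6.72 and 3.31 with Upk3b most abundant, and all 3 were highest in DIO 2, with a median relative spread of 1.02 and of 0.58 without it. Skeletal muscle markers, 0 of 11 kept, summed to 1.18, 0.885, 1.53, 1.46 and 3.73 with Mylpf most abundant. Squamous epithelium markers, 1 of 6 kept and 0 called, summed to 1.54, 1.56, 1.53, 1.74 and 1.35 with Krt10 most abundant and Krt1 and Krt5 at 0.

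The median relative spreads of genes of the basic machinery of the cell were near 0 with all 5 livers and lower without DIO 2. With the total count as the scale, ribosomal proteins had a median of -0.15, nuclear respiratory chain subunits of -0.14 and proteasome subunits of -0.30. The 77 of 79 ribosomal protein genes kept were all called, with a median relative spread of 0.07 (-0.10 without DIO 2, 0.27 without DIO 1) and 46 above the usual CV. They took 1.16%, 0.995%, 1.34%, 1.28% and 1.08% of the mRNA, and 52 of the 77 were highest in DIO 3, as were 22.4% of all genes. Rplp1, a ribosomal stalk protein and the most abundant, had 170, 109, 217, 218 and 160 CPM, and Rpl36 varied most, with 48.7, 32.8, 67.3, 63.9 and 48.6 CPM. Respiratory chain subunits of the nuclear genome had 72 of 76 kept, 71 called and 43 above the usual CV, with a median of 0.07 (-0.35 without DIO 2, 0.24 without DIO 1). They took 1.24%, 1.08%, 1.46%, 1.42% and 1.29% of the mRNA, and 43 of the 72 were highest in DIO 3 and 0 in DIO 2, the reverse of the mitochondrially encoded subunits. Atp5a1, a subunit of the ATP synthase, had 850, 824, 1053, 1116 and 1025 CPM, and Ndufs7, a subunit of complex I, had 49.2, 36.3, 73.7, 81.7 and 63.9 CPM. Proteasome subunits, 37 of 39 kept and all called, had a median of -0.10 (-0.42 without DIO 2, 0.08 without DIO 1), with 15 above the usual CV and 0.259%, 0.217%, 0.270%, 0.272% and 0.245% of the mRNA. Psma6 had 105, 78.5, 119, 122 and 112 CPM and Psmd9, the most variable of them, 30.7, 32.0, 35.3, 67.9 and 55.7 CPM. DIO 2 and DIO 3 were also the livers whose values moved most with exon length, and the part of length in these lists was not tested.

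Genes often used as references for PCR had the lowest median relative spread of the 26 lists, at -0.22, but without DIO 2 it was -0.08 and proteasome subunits had the lowest. Proteasome subunits also had the lowest with the total count as the scale, at -0.30, where the reference genes had -0.21. All 19 reference genes were kept and called, 9 were above the usual CV, 3 were in the lowest 10% of all genes and 0 in the highest 10%. They took 1.14%, 1.10%, 1.09%, 0.974% and 1.00% of the mRNA. B2m, a subunit of MHC class I, had 2196, 1531, 1782, 1393 and 1602 CPM, a relative spread of 0.02, or -0.65 without DIO 1. Eef1a1, a translation elongation factor in this list, was steady at 3808, 4072, 4393, 4141 and 4027 CPM, a relative spread of -1.80. Cell cycle genes were low, at 0.00827%, 0.00749%, 0.00735%, 0.00734% and 0.00728% of the mRNA, with 23 of 32 kept, 16 called, 15 above the usual CV and a median relative spread of 0.12 (0.17 without DIO 2, 0.06 without DIO 4, 0.26 without DIO 3). Pcna, the sliding clamp of DNA replication, had 20.2, 20.7, 20.3, 18.6 and 21.1 CPM and was not called. Rrm2, a subunit of ribonucleotide reductase, had 5.17, 6.52, 8.37, 16.02 and 19.8 CPM.

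The steadiest gene of 1000 CPM and over was Plg (ENSMUSG00000059481, chr17:12378608-12419385, plus strand). It had 2382, 2256, 2297, 2391 and 2246 CPM in DIO 1 to DIO 5, a CV of 2.97% and a relative spread of -2.60. The 5 livers were nearly level, yet at this depth the CV from counting is 0.468%, and the gene was called. Akr1c6, an aldo-keto reductase of steroids, had 1139, 1111, 1237, 1114 and 1098 CPM, and Slc38a4, an amino acid transporter, had 1072, 1148, 1017, 996 and 1129 CPM. Alb was also steadier than usual at its level, with a CV of 7.35% and a relative spread of -1.29.

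Of the genes of 100 to 1000 CPM, Nadk, the kinase that makes NADP, was the steadiest, with 217, 208, 204, 213 and 211 CPM and a relative spread of -2.77. Osbpl9, a lipid-binding protein, had 126, 130, 133, 134 and 132 CPM, and Dync1h1, the heavy chain of the dynein motor, had 123, 119, 122, 128 and 121 CPM. Tomm70a, a receptor for import into mitochondria, had 107, 102, 109, 107 and 106 CPM. Of the genes of 10 to 100 CPM, Osgepl1, which modifies mitochondrial transfer RNA, had 15.7, 15.3, 15.7, 15.7 and 15.9 CPM, a CV of 1.44% and a relative spread of -3.54, or -6.09 without DIO 2. Its CV was below the 5.68% that counting error gives on average, so its spread cannot be told apart from counting error at this depth. The same held for Pan3, a subunit of a deadenylase, at 18.4, 18.8, 17.9, 18.2 and 18.3 CPM with 5.25% from counting. Scly, which frees selenium from selenocysteine, had 90.8, 94.1, 93.2, 92.5 and 94.8 CPM, and Tm9sf4, a membrane protein, had 52.7, 53.2, 52.0, 50.9 and 51.9 CPM. None of these 8 genes of 10 to 1000 CPM was called.

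Many genes of high spread in unoperated mice were also variable in operated mice. Over 12016 genes that averaged 1 CPM or more in each group, the median CV was 18.6% in DIO, 19.0% in RYGB and 36.5% in GB-IL. Across these genes, which are not independent replicates, the rank correlation of the relative spread in DIO was 0.437 with RYGB and 0.326 with GB-IL. No liver is shared between the groups. Lists of 100 genes were drawn afresh among the 7360 genes that averaged 10 CPM or more in both DIO and RYGB, and among the 7123 that did so in both DIO and GB-IL. Of the 100 most variable genes of DIO, 37 were also among the 100 of RYGB in the former and 24 among the 100 of GB-IL in the latter, where 100 genes are 1.36% and 1.40% of all. Selenbp2, Elovl3, Cyp2b9, Mup1, Mup17, Mup21, Hba-a2, Rgs16, Cxcl1, Cdkn1a and Cyp26b1 were in all of these lists of 100, and some of the 11 fall outside the naming rule and were chosen after their values were seen. Selenbp2 had a CV of 76.3% in RYGB and of 145% in GB-IL. In RYGB it was 10.9, 165, 208, 177 and 31.8 CPM, scaled within that group, so its livers again fell far apart. All 100 of the most variable genes of DIO had a relative spread above 0 in RYGB, against 48.8% of the 7360 genes, and 88 of the 100 drawn with GB-IL had one there, against 47.4% of the 7123. Of the 100 least variable genes of DIO, 1 was among the 100 of RYGB and 2 among those of GB-IL, near those shares of all genes, and 22 and 31 were above 0 there. Genes picked for a low CV in DIO need not be as low in other livers. Plg had a relative spread of -0.62 in RYGB and of -0.32 in GB-IL, still below the usual CV of each group, where it had -2.60 in DIO. Osgepl1 had -0.40 in RYGB and 0.66 in GB-IL.

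The median relative spread of each list named here was above 0 in DIO and in both operated groups. It is relative to the usual CV of each group, and the median CV was 36.5% in GB-IL against 18.6% in DIO. The median relative spread of major urinary proteins was 1.89 in DIO, 2.09 in RYGB and 1.92 in GB-IL, and that of male-biased genes was 1.57, 1.78 and 1.47. Female-biased genes had 1.86, 3.17 and 1.35. Clock genes had 1.13 in DIO, 1.55 in RYGB and 0.61 in GB-IL, and cholesterol genes had 1.53, 1.35 and 0.40. All genes were near 0 in each group by construction. The differences between groups in these medians were not tested.

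The tests of surgery used these livers as controls in both comparisons. The number of genes that differed depended on the tool, on the groups fitted and on single livers. With edgeR's quasi-likelihood test of 14252 genes, GB-IL differed from DIO at 465 genes, 3.26% of those tested, of which 449 were higher (3.15%) and 16 lower (0.112%), while DESeq2 called 1347. RYGB differed from DIO at 0 genes, which is 0% of those tested, while 1241 had an unadjusted p under 0.05 and DESeq2 called 94. With only the 2 compared groups in the edgeR fit, 0 genes differed in GB-IL and 33 in RYGB. The calls that follow therefore rest on the fit of all 14 livers. Hpx, the haem-binding protein haemopexin, was the most abundant of the 465 genes. It had 7405, 4141, 7056, 4757 and 4621 TPM in DIO and 30745, 49522, 37525 and 5584 TPM in GB-IL, where 3 of 4 livers were above every DIO liver and GB-IL 4 was within their range. The log2 fold change was 2.54 ± 0.52 (SE, edgeR adjusted p = 0.0278). Hp, the haemoglobin-binding haptoglobin, followed the same pattern, with a log2 fold change of 2.19 ± 0.53 (edgeR adjusted p = 0.0375) and GB-IL 4 again within the range of DIO. Fgb, a fibrinogen chain, had one of 1.57 ± 0.41 (edgeR adjusted p = 0.0489). Of the 27 acute phase genes, whose median relative spread in DIO was 0.72, 15 were higher in GB-IL. Markers of other cells were higher too: 4 of 6 neutrophil markers tested, 4 of 8 of cholangiocytes, 5 of 12 of Kupffer cells and macrophages, 1 of 6 of B and plasma cells, 1 of 12 of stellate cells, 1 of 2 of exocrine pancreas, 1 of 3 of gallbladder and gut epithelium and the 1 of skeletal muscle. Of 7 red cell markers 1 was lower, and no marker was called for the other 6 cell types. Neutrophil markers summed to 103, 42.2, 442 and 2.95 CPM in GB-IL 1 to GB-IL 4, with S100a9 most abundant, against 2.67 to 5.75 CPM in DIO. Cholangiocyte markers summed to 317, 260, 223 and 73.8 CPM, with Spp1 most abundant, against 48.7 to 77.3 CPM in DIO. Kupffer cell and macrophage markers summed to 1010, 1628, 2773 and 1140 CPM, with Lyz2 most abundant, against 546 to 969 CPM in DIO. B and plasma cell markers summed to 171, 107, 285 and 32.3 CPM, with Igkc most abundant, against 10.8 to 84.6 CPM in DIO. Gallbladder and gut epithelium markers, from tissues that GB-IL joins, summed to 177, 111, 55.3 and 233 CPM, with Fabp2 most abundant, against 88.6 to 222 CPM in DIO. Red cell markers summed to 438, 1771, 442 and 164 CPM, with Hbb-bs most abundant, against 247 to 2440 CPM in DIO. GB-IL 4 was within the range of DIO for neutrophil, cholangiocyte and B and plasma cell markers, as it was for Hpx. GB-IL 1 stood apart in exocrine pancreas, skeletal muscle and squamous epithelium markers. Its exocrine pancreas markers summed to 1990 CPM, with Ctrb1 most abundant, against 8.67 to 14.01 CPM in the other GB-IL livers. Its skeletal muscle markers summed to 2117 CPM, with Acta1 most abundant, against 0.957 to 3.33 CPM, and its squamous epithelium markers to 390 CPM, with Krt4 most abundant, against 2.03 to 32.9 CPM. Its stellate cell markers, led by Dcn, summed to 909 CPM, against 293 to 418 CPM. GB-IL 2 had the 32.9 CPM of squamous epithelium markers, against 1.35 to 1.74 CPM in DIO. Mesothelium markers, with Msln most abundant, summed to 28.9, 4.58, 19.8 and 12.4 CPM in GB-IL 1 to GB-IL 4, against 2.72 to 12.3 CPM in DIO. T and NK cell markers, with Ccl5 most abundant, summed to 3.43, 6.14, 28.0 and 7.08 CPM, against 6.73 to 10.6 CPM in DIO. Hepatocyte markers, with Alb most abundant and 0 of 10 called, summed to 104237, 114700, 91295 and 129858 CPM, below every DIO liver. No marker of these types was at 0 in all GB-IL livers, and the part of these cells in the acute phase result was not tested. The count of 465 lay near the threshold and changed with single livers. It was 0 without any 1 of the 5 DIO livers, 0 without GB-IL 1 or GB-IL 2, and 3572 without GB-IL 4. The smallest edgeR adjusted p was 0.0278 with all livers and 0.0618 to 0.0942 without a DIO liver. Genes with an unadjusted edgeR p under 0.05 numbered 3297 with all livers and 2564 to 2957 without a DIO liver.

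Promoters of the named genes were searched for TATAAA and its reverse complement TTTATA, the usual letters of a TATA box, in the 250 bases before and 50 bases after the start that the RefSeq table for GRCm38.p6 gives. Among all 32851 promoters of that source, 13.6% held it, and 1.99% held it on the gene's strand 20 to 40 bases before the start. Among the 11545 promoters of the genes kept, from which the named genes come, these shares were 7.73% and 1.22%. Of the 20 most abundant genes 8 had a promoter in the table, and 2 of these, Fabp1 and Cyp2e1, held it in that window. Of the 24 genes named for high relative spread 16 had a promoter, and Cyp2a4, Gadd45g and Tubb2a held it there. Of the 12 named for low relative spread 11 had a promoter and 0 held it there. These counts are small, a match is not a binding site, and no comparison was made. The 100 bases before the start of these 5 genes are shown, from the most abundant to the variable ones, with the match in capitals: Fabp1 at chr6:71199779-71199878 and Cyp2e1 at chr7:140763719-140763818 on the plus strand, Cyp2a4 at chr7:26307092-26307191 and Gadd45g at chr13:51846575-51846674 on the plus strand, and Tubb2a at chr13:34078009-34078108 on the minus strand.
Fabp1: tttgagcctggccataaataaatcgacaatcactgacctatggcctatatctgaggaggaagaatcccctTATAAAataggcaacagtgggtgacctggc
Cyp2e1: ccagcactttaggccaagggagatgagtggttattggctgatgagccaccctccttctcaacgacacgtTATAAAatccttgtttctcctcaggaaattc
Cyp2a4: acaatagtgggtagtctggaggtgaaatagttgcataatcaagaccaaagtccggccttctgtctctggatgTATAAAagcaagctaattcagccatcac
Gadd45g: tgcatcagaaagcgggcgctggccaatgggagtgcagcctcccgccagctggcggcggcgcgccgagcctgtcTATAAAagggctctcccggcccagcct
Tubb2a: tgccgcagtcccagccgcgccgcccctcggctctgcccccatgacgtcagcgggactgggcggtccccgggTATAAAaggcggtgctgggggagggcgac
The match lies 30 bases before the start in Fabp1, 31 in Cyp2e1, 28 in Cyp2a4, 27 in Gadd45g and 29 in Tubb2a.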

How the data were processed

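Liver RNA of 14 mice was sequenced, 1 library per mouse. The authors deposited the values as raw read counts per gene, which their notes say were made with HTSeq from TopHat2 alignments (mm10, with hg19 also listed). The strand setting is not stated in the sources used here, so overlapping genes and near copies (Mup, Serpina1, Cyp2c, Cyp2d, Cyp3a, Cyp4a, Saa and globin genes) have uncertain levels. Total counts were 18440676 to 21473005 in DIO, 19231679 to 26131278 in GB-IL and 18223135 to 28656631 in RYGB.

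For abundance, counts were divided by the length of all exons joined (GENCODE annotation of GRCm38), which 24701 genes had by identifier and 175 by symbol, and 336 genes with 0.131% of the counts had none. For spread, CPM was scaled by edgeR's TMM within each group, and genes with a mean of at least 1 CPM were kept. The usual CV of a level was the running median over 501 genes. The chi-square test had 4 degrees of freedom, and p-values of each test were adjusted by the Benjamini-Hochberg method over all genes kept, at 0.05. Groups were compared with edgeR's quasi-likelihood test over all 14 livers, and 5 values per liver with exact permutation tests. Cell type sums are CPM of the total count, without TMM. Used were R 4.3.3, edgeR 4.0.16, limma 3.58.1, DESeq2 1.42.0, Python 3.11.15, numpy 2.4.6, pandas 2.3.3, scipy 1.17.1 and matplotlib 3.10.9. The steps were tested on simulated data.

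Named genes were the 20 of highest mean TPM, the 6 of highest relative spread in each of 4 levels of mean CPM, the 4 of lowest relative spread in each level from 10 CPM up, the most abundant and the most variable gene of each of 26 lists, and the 3 most abundant genes called in GB-IL against DIO. Genes with no symbol and pseudogenes were passed over. Some of the genes so named are not reported here. The genes, the 26 lists and the markers of 15 cell types were chosen with earlier results of these data known. Of 700 list genes, 44 are in more than 1 list. A comparison of promoter letters between whole sets of genes was void, since 8945 of 12335 genes, 57 of the 100 most abundant and 135 of 200 genes of a spread set had a promoter in the table, fewer than 80%. Alternatives were another scaling, filter, measure of spread, window, gene length, total, tool, block and set of livers.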

Additional observations from a re-analysis of the deposited data

Results flagged for a closer look

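A sample was marked when its gap to the nearest other sample of its group was a large part of the group's range (Dixon's test at the 95% level). Of 148 groups of values tested 23 were marked, where chance marks about 5%: 1 of 15 values per liver, 5 of 41 lists and 17 of 92 named genes. Many of the genes were named for their high spread, which such a gap makes likely. DIO 1 was the marked liver for 9 of the 17 genes. No explanation was weighed.

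The share of secreted plasma proteins in the mRNA was 28.3% in RYGB 5, against 21.9% to 23.2% in the other RYGB livers. That liver also stood apart in summed markers of other cells. Neutrophil markers summed to 152 CPM, against 4.14 to 8.29 CPM in the other RYGB livers. Sinusoidal endothelium markers summed to 914 CPM, against 310 to 471 CPM, and stellate cell markers to 816 CPM, against 360 to 453 CPM. Red cell markers summed to 2064 CPM, against 117 to 951 CPM. The part of these cells in the share was not tested. Cytochrome P450 genes took 1.52% of the mRNA in DIO 1, against 1.99% to 2.15% in the other DIO livers. Cholesterol genes took 0.258% in DIO 1, against 0.112% to 0.147%. Genes of bile acid synthesis and transport took 0.704% in DIO 3, against 0.778% to 0.804%. Cell cycle genes took 0.00827% in DIO 1, against 0.00728% to 0.00749%. Skeletal muscle markers took 0.000509% in DIO 5, against 0.000148% to 0.000236%.

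In DIO 1, Hmgcs1 was at 565 CPM, against 60.6 to 137 in the other DIO livers. Mvd was at 35.5 CPM in the same liver, against 3.23 to 5.73, and Tubb2a at 91.8 CPM, against 8.60 to 17.4. Spon2 was at 23.0 CPM there, against 1.83 to 4.36, and Elovl3 at 377 CPM, against 51.6 to 98.3. Elovl5 was at 1352 CPM, against 284 to 485, and Fgf21 at 9.82 CPM, against 1.71 to 3.23. The clock genes Arntl and Tef were marked in DIO 1 in opposite directions, Arntl at 15.5 CPM, against 1.35 to 4.67, and Tef at 76.1 CPM, against 209 to 255.

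In DIO 2, Onecut1 was at 32.2 CPM, against 1.75 to 5.79 in the other DIO livers, and Zfp871 at 37.8 CPM, against 3.65 to 8.91. Osgepl1 was at 15.3 CPM in DIO 2, against 15.7 to 15.9, a gap within counting error. In DIO 3, Cidea was at 6.76 CPM, against 0.0476 to 1.97, and Rhbg at 18.3 CPM, against 3.72 to 7.03. In DIO 4, Selenbp2 was at 604 CPM, against 5.86 to 56.5, and Serpina1e at 7276 CPM, against 183 to 1900. In DIO 5, Cyp2b10 was at 21.2 CPM, against 0.879 to 4.38.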

How the results depend on the processing

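Of 12347 genes 10247 were beyond counting error, 83.0%, a share with little room to rise. It was 91.4% with a filter of 5 CPM (8510 of 9311), 50.4% with none (10994 of 21821) and 71.8% to 81.5% with 1 DIO liver left out (8812 to 10095 genes). The median CV of 18.9% moved to 15.6% without DIO 2 and was 15.6% to 20.2% over the livers left out. Of the other alternatives of the median CV, none moved it by more than the SD of its values with 1 DIO liver left out. The rank correlation of the relative spread with RYGB, 0.437, was 0.480 with a filter of 5 CPM and 0.375 to 0.430 with 1 DIO liver left out. That with GB-IL, 0.326, was 0.341 with the total count as the scale, 0.342 with a filter of 5 CPM, 0.320 with edgeR's dispersion and 0.295 to 0.307 with 1 DIO liver left out. The 37 genes shared between the most variable of DIO and RYGB were 31 to 47 under the alternatives.

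Shares of the mRNA rest on the length and on the total. The 40.6 genes that hold 50% became 140.8 with shares of the counts, 73.4 with mean transcript lengths and 66 without mitochondrially encoded genes, which lowers the total. The share of the 10 most abundant genes, 30.0%, became 19.9% with counts, 26.7% with mean transcript lengths, 28.4% without mitochondrial genes and 31.5% with protein-coding genes alone. Secreted plasma proteins, at 21.1%, became 23.8% with mean transcript lengths and 25.5% without mitochondrial genes. The mitochondrial share, 16.9%, became 7.06% with counts and 9.20% with mean transcript lengths. Leaving out genes under 200 bases, an alternative chosen after seeing the data, moved none of these 4 values by more than 1 SD. With 1 DIO liver left out they were 39.5 to 41.3 genes, 29.7% to 30.3%, 20.7% to 21.4% and 15.7% to 17.9%. The exact permutation tests have too few livers to read their stability from.

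The 465 genes of GB-IL against DIO were 1347 with DESeq2, 0 with the 2 compared groups alone, and 0 to 3572 with 1 liver left out: 0 without any 1 DIO liver, GB-IL 1 or GB-IL 2, 294 without RYGB 3 and 3572 without GB-IL 4. The 0 genes of RYGB against DIO were 94 with DESeq2, 33 with the 2 compared groups alone, and 0 to 5 with 1 liver left out (5 without GB-IL 4, 1 without RYGB 4). With the replicate number as a block the counts were 1 for GB-IL and 0 for RYGB. The study states no pairing of livers by number. Over 13 pairs of the same number the correlations across genes ran from -0.38 to 0.38, and 2 were over 0.1. Over 52 pairs of other numbers they ran from -0.41 to 0.47, and 17 were over 0.1. Whether a number marks a shared batch cannot be decided from so few pairs. The relative spread of Tef, 1.05, turned to -0.76 without DIO 1 and was at most 1.52 with another liver left out. The other values of named genes under the alternatives were set against the SD of that gene's values with 1 DIO liver left out. Of these, 146 moved by more than that SD and 497 did not. Where the construction does not show it, the cause was not tested. Depth limits the genes of 1 to 10 CPM most, where counting error alone gives a median CV of 11.5%.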

Other observations

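Some genes outside the lists and outside the naming rule also differed widely between unoperated livers. They were chosen after their values were seen, so they are given as values, with no count of a theme. Hspa5, the main chaperone of the endoplasmic reticulum, had 1556, 586, 456, 418 and 382 CPM in DIO 1 to DIO 5. Manf, a secreted protein of that compartment, had 198, 59.2, 65.5, 38.4 and 35.7 CPM. Hyou1, another of its chaperones, had 293, 153, 78.4, 75.1 and 82.0 CPM. DIO 1, the liver highest in cholesterol genes, was the highest for each. Their relative spreads were 2.02, 2.33 and 2.04.

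Ppp1r3c, which directs a phosphatase to glycogen, had 52.5, 24.6, 37.9, 165 and 149 CPM, and Pfkfb3, a regulator of glycolysis, had 7.96, 13.6, 9.67, 53.8 and 30.8 CPM. DIO 4 and DIO 5 were above the other 3 livers for both. Cish, an inhibitor of cytokine and growth hormone signalling, had 12.2, 51.6, 4.76, 21.6 and 6.69 CPM, and Socs2, of the same family, had 12.3, 29.3, 5.31, 14.4 and 6.21 CPM. DIO 2 was highest and DIO 3 lowest for both. Bcl6, a repressor that is higher in male liver, had 9.98, 24.3, 27.1, 26.7 and 66.7 CPM, highest in DIO 5. Cxcl1, a chemokine that attracts neutrophils, had 11.1, 4.57, 9.62, 12.6 and 48.1 CPM, also highest in DIO 5. All of these genes were called by the chi-square test.

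Several limits apply to all of these values. There are 5 mice, 1 library each, and no second sample of any liver, so variation between mice and variation from dissection, handling or library preparation cannot be told apart. The share of the mRNA depends on annotated gene lengths. Genes were ranked and described on the same 5 livers, and no other unoperated liver is at hand to measure the spread of the extreme ones again. The chi-square test treats reads as independent molecules, which reads without identifiers are not.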
